A study of Mus musculus with 42 samples.

Results

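The transcripts described here are those whose response to a daily fast of 16 h differed between mice still on the fast and mice that had returned to free feeding. For each gene the regimen difference (IF16 minus AL, on the log2 scale) was set against the refed difference (refed IF16 minus refed AL), and the first minus the second is the interaction. The members are 20 RNA-seq libraries of the 42 samples of the series, 5 in each of 4 groups, all from cerebellum of male mice of the strain labelled C57BL/6 (C57/BL6NTac in the series' design). AL mice fed ad libitum from 3 to 6 months of age, and IF16 mice went without food for 16 h of every day over the same 3 months. The IF16 food was given in the morning and taken away in the afternoon, so these mice ate by day, when mice usually rest. Refed AL and refed IF16 mice, whose group names carry an added R in the labels, had free food for 2 further months after the same 3 months of either regimen and were 8 months old at the end. Nothing in the sources used here ties a library to an animal, and p-values measure only the spread between these samples. The hour of collection and the time since the last meal are not given in the sources used here. Age, the length of free feeding and any difference in making between the regimen and refed tables cannot be told apart in any change of level between AL and refed AL. They cancel from the interaction only where they act equally on fed and fasted mice.

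Daily feeding times and fasting reach the brain by several routes. The circadian clock is a feedback loop in which BMAL1 (gene Arntl) with CLOCK or NPAS2 binds E-box sequences and drives genes of its own repressors, among them the Per, Cry, Nr1d, Bhlhe and Ciart genes, while the PAR bZIP factors Dbp, Tef and Hlf carry the rhythm to D-box sequences of output genes. Fasting also raises glucocorticoids from the adrenal gland, which act through the receptor Nr3c1 on genes such as Fkbp5, Sgk1, Tsc22d3 and the metallothioneins. It lowers insulin and moves lipid metabolism from synthesis towards use. The cerebellum is mostly granule cells, with Purkinje cells, Bergmann glia and other astrocytes, and oligodendrocytes.

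The 20 libraries held 30126372 to 34985455 counts over genes. Markers fixed for Purkinje cells, granule cells, astrocytes with Bergmann glia, and oligodendrocytes were tested in full (9, 9, 11 and 8 genes) and the sum of each list was 5049 CPM or more in every library, so markers of the labelled tissue were present throughout. The length gradient of a library is the slope of log2 CPM on log2 gene length, a sign of RNA quality or library making. AL libraries lay between -0.187 and 0.0160 and IF16 libraries between -0.148 and 0.0229. Refed AL lay between 0.0133 and 0.0331 and refed IF16 between 0.0430 and 0.0786, so the refed groups did not overlap in it. The sum of 11 choroid plexus markers reached 4270 CPM in AL (lowest library 46.4), 3143 in IF16 (lowest 40.9), 2002 in refed AL (lowest 44.1) and 683 in refed IF16 (lowest 34.2). The forebrain-rich transcript Nrgn was at 135 CPM in AL replicate 1 and 112 in AL replicate 4, against 6.08 to 12.3 in the others.

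Of 16877 genes tested, 8 were called in the interaction (0.0474% at an adjusted p under 0.05, edgeR's quasi-likelihood test with Benjamini-Hochberg adjustment). The clock repressor Ciart, the clock output factor Tef and the protease inhibitor Ctla2a had a positive interaction (3 genes, 0.0178%), that is, a higher regimen than refed difference. The collagen Col2a1, the membrane-bound metalloproteinase Mmp14, the fatty acid desaturase Fads2, the immunoglobulin-domain membrane protein Vstm4 and the transcript 0610040J01Rik had a negative one (5 genes, 0.0296%). At an unadjusted p under 0.05, 1217 genes (7.21%) passed, 553 with a positive (3.28%) and 664 with a negative interaction (3.93%). The median log2 interaction of all genes tested was 0.0035.

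A large interaction can arise when a regimen difference is near 0 after refeeding or when the refed difference has the opposite sign. Both were seen. In Ciart the refed difference was 0.00 on the log2 scale, and that of Tef was smaller than its regimen difference and of the same sign. In the other 6 called genes the signs of the regimen and refed differences were opposite, a pattern that choosing genes by the interaction favours. Leaving out IF16 replicate 2 or refed IF16 replicate 1 gave 16 calls each, and leaving out refed AL replicate 3 gave 5. With the 20 libraries alone, 4 genes were called, and Mmp14, Fads2 and Vstm4 each had an adjusted p of 0.0721.

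**Figure D1:**
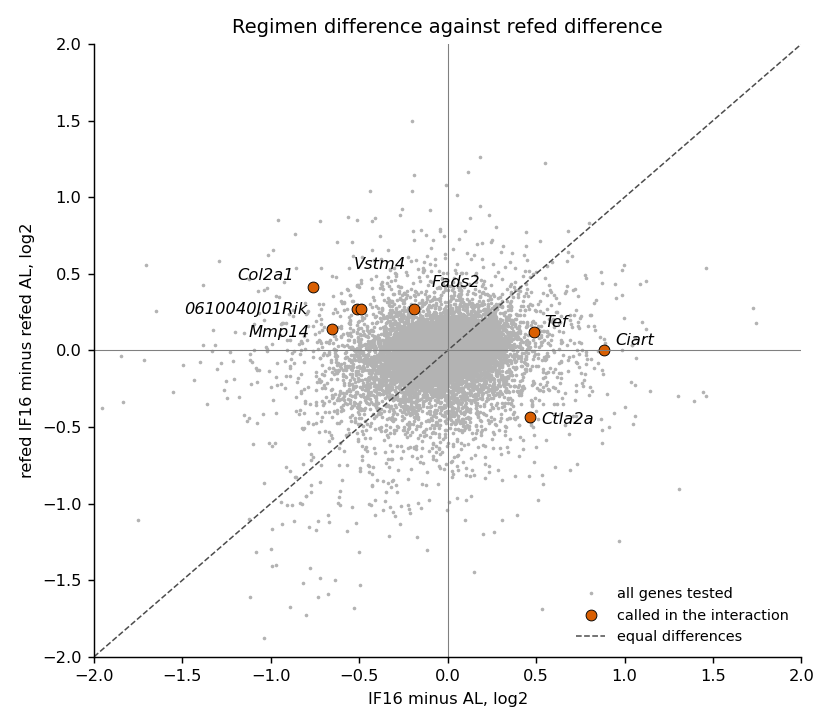
Log2 difference between IF16 and AL (horizontal) against that between refed IF16 and refed AL (vertical) for 16866 genes tested, with 11 genes beyond 2 on either axis not drawn. The dashed line marks equal differences. The 8 called genes lie away from that line, Ciart at 0.89 on the horizontal axis and 0.00 on the vertical, and 6 of them in the quadrants of opposite sign.

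Ciart (ENSMUSG00000038550, chromosome 3, 95878503-95882251 on mm10) encodes a repressor that binds the CLOCK:BMAL1 complex and is itself driven through E-boxes. AL libraries held 10.2, 12.1, 9.69, 11.7 and 11.5 CPM of Ciart, and IF16 libraries 21.2, 21.7, 17.8, 17.3 and 24.1. In the refed groups the values were 12.8, 14.1, 14.5, 15.3 and 16.7 CPM for AL and 15.99, 13.6, 15.7, 13.2 and 14.9 for IF16. Every IF16 library was above every AL library, as in 0.800% of all genes tested, while the refed groups overlapped fully. The means were 11.1 ± 1.05 CPM in AL, 20.4 ± 2.86 in IF16, 14.7 ± 1.44 in refed AL and 14.7 ± 1.25 in refed IF16 (SD, n = 5 each). The regimen difference was 0.89 and the interaction 0.89 (95% interval 0.62 to 1.15; edgeR adjusted p = 0.00301). On the log2 scale the level changed by 0.41 from AL to refed AL and by -0.48 from IF16 to refed IF16. Each of the 20 fits with 1 library removed still called Ciart.

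Tef (ENSMUSG00000022389, chromosome 15, 81802421-81826861), thyrotroph embryonic factor, activates genes through D-boxes. The Tef values were 317, 302, 289.7, 280.1 and 282 CPM in AL and 412, 410.3, 414, 395 and 431 in IF16. Refeeding gave 302, 349, 357, 346 and 358 CPM in refed AL and 383, 367, 380.3, 361 and 367 in refed IF16. All IF16 libraries exceeded all AL libraries, and all refed IF16 libraries exceeded all refed AL libraries, by less. Over all genes tested, 1.13% had every refed IF16 library above every refed AL library. The means were 294 ± 15.6 CPM in AL, 412 ± 12.7 in IF16, 342 ± 23.2 in refed AL and 372 ± 9.49 in refed IF16. The regimen difference was 0.49, the refed difference 0.12 and the interaction 0.37 (95% interval 0.22 to 0.52; edgeR adjusted p = 0.0454). This call was the least stable of the 8. It passed in 6 of 20 fits that left out a library, with an adjusted p of 0.138 at the most, and it was lost with RLE size factors, without the filter, in the fit of 20 libraries, with limma's weights, with the replicate block (adjusted p = 0.0946), and without AL 4, AL 5 and IF16 1. Replicate 1 of refed AL, at 302 CPM, lay below the other 4 refed AL libraries, and without it the interaction was 0.41.

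Because Ciart is a known target of the clock, the 250 bases before its RefSeq start (build GRCm38.p6, the same assembly as mm10) are shown 5′ to 3′ on the strand of the gene, with E-boxes (CACGTG, which reads the same on both strands) in capitals. The window is on the minus strand at chr3:95882229-95882478, and the RefSeq start is 23 bases from the deposited one.
Ciart: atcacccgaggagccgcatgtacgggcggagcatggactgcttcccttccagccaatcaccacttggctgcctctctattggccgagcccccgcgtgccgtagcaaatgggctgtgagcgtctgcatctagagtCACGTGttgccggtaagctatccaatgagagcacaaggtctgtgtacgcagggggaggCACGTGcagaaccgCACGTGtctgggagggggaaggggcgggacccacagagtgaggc
The Ciart window holds 3 E-boxes, which begin at positions -116, -58 and -44 from the start, and the matching Tef window, which lies inside the deposited gene and is not printed, holds 1, at -127. Of 32851 RefSeq promoter windows of this length, 6.02% hold an E-box. Of the clock repressor genes described next, 8 were found in the table and 4 held one, and of the clock activators and PAR bZIP factors 9 were found and 1 held one. D-boxes were searched as TTATGTAA and TTATGCAA on both strands and stood in 0.819% and 0.694% of all windows. A match is a description of these letters only.

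**Figure D2:**
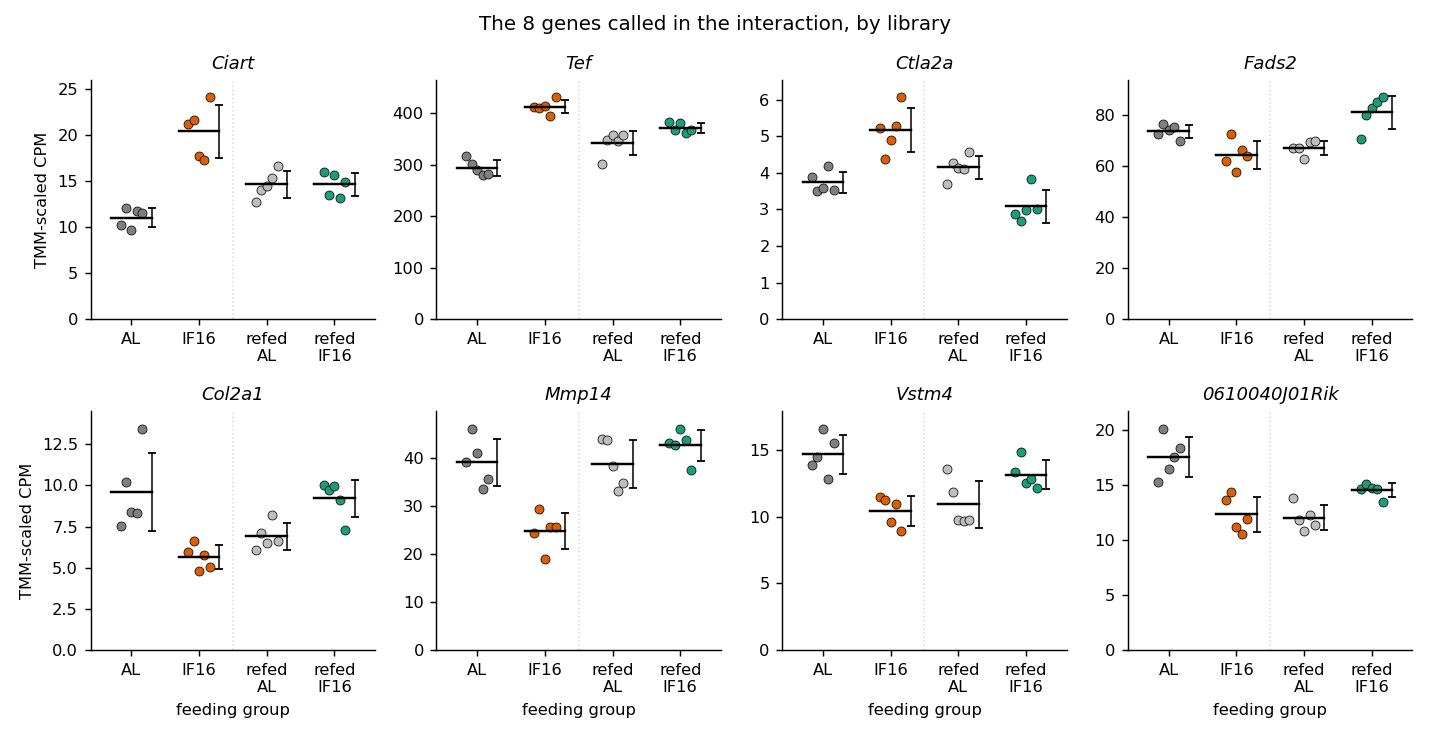
TMM-scaled CPM (vertical, from 0) of the 8 called genes in the 5 libraries of each group (points), with the group mean (line) and SD (bar beside it). Ciart stood between 17.3 and 24.1 CPM in IF16, above the 9.69 to 12.1 of AL, and between 12.8 and 16.7 in both refed groups together.

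All 10 genes of the clock repressor arm had a positive interaction, with a median of 0.31 against 0.0035 over all genes tested. Ciart was called, and 5 of the 10 passed at an unadjusted p under 0.05 (background 3.28% in that direction). This and the other lists were chosen with earlier results of these data known, so such counts are a description. The median regimen difference was 0.37 and the median refed difference 0.09. In 7 of the 10 every IF16 library was above every AL library, as in 0.800% of all genes tested. In none did the refed groups separate, and over all genes tested they did so in only 1.13% (refed IF16 higher) and 1.03% (refed IF16 lower). Nr1d2, a nuclear receptor that represses Arntl, was at 148, 138, 133, 103 and 111 CPM in AL and at 156, 149.95, 219, 190.3 and 197 in IF16. In refed AL it was at 155, 169, 181, 167 and 175 CPM and in refed IF16 at 172, 172, 184, 174 and 179.6. The lowest IF16 library thus lay just above the highest AL library, and the refed ranges overlapped (interaction 0.47, SE 0.127, edgeR adjusted p = 0.324). On the log2 scale Nr1d2 changed by 0.42 from AL to refed AL and by -0.05 from IF16 to refed IF16.

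The period genes encode the main repressor proteins of the loop, and in all 3 the refed difference was smaller than the regimen difference. Per3 had a regimen difference of 0.49 and a refed difference of 0.18 (interaction 0.31, SE 0.116). Per2 had 0.95 and 0.34, with means of 43.5 CPM in AL, 84.3 in IF16, 48.8 in refed AL and 61.9 in refed IF16, and its interaction of 0.61 carried an SE of 0.365. Per1 had 0.73 and 0.27 (interaction 0.46, SE 0.296). Ranges within groups were wide for both, and Per1 ran from 63.8 to 197 CPM in refed AL. Refed Per2 values rose with replicate number, from 31.0 to 67.1 CPM in refed AL and from 33.0 to 87.6 in refed IF16. Nr1d1, the paralog of Nr1d2, had an interaction of 0.30 and Bhlhe40, a repressor at E-boxes, one of 0.26. Bhlhe41 had an interaction of 0.15, from a regimen difference of 0.17 and a refed difference of 0.02. Cry1 and Cry2 had interactions near 0, at 0.08 and 0.06, with regimen differences of 0.25 and 0.18. For Cry1 and Cry2 the refed differences, 0.18 and 0.12, were close to the regimen differences. From AL to refed AL, Per3 changed by 0.27, Per2 by 0.16, Per1 by 0.28, Nr1d1 by 0.40 and Bhlhe40 by 0.09. From IF16 to refed IF16 the same genes changed by -0.04, -0.45, -0.18, 0.10 and -0.17. A smaller refed difference can thus come from a change in the controls, which cannot be told apart from age or table.

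Among the 10 clock activators and PAR bZIP factors, 1 was called (Tef). At an unadjusted p under 0.05, 2 passed with a positive (background 3.28%) and 2 with a negative interaction (background 3.93%). The median was 0.10 and moved between 0.04 and 0.16 as single libraries were left out. Arntl, the activator, had an interaction of the opposite sign to its repressors. In AL, Arntl was measured at 46.2, 43.6, 48.6, 40.6 and 43.3 CPM, and in IF16 at 34.4, 34.6, 35.7, 37.5 and 38.1. Values after refeeding were 46.2, 39.2, 41.2, 40.9 and 38.04 CPM in refed AL and 41.6, 41.8, 48.3, 42.2 and 40.5 in refed IF16. All IF16 libraries were below all AL libraries, as in 0.711% of all genes tested, and the refed groups overlapped. The regimen difference was -0.30, the refed difference 0.06 and the interaction -0.36 (95% interval -0.53 to -0.20, edgeR adjusted p = 0.106). Of 20 fits with 1 library removed, 1 called Arntl, that without refed AL replicate 1 (edgeR adjusted p = 0.0229). The highest adjusted p of those fits was 0.263. Nfil3, a repressor at D-boxes that opposes the PAR bZIP factors, also had a negative interaction (-0.32, edgeR adjusted p = 0.689). Dbp had the opposite sign in the regimen and refed comparisons. Dbp was at 39.1, 45.04, 41.3, 62.3 and 53.6 CPM in the AL libraries and at 87.3, 84.7, 55.7, 56.1 and 61.5 in the IF16 libraries. Refed AL libraries held 49.3, 70.9, 67.8, 70.3 and 71.3 CPM and refed IF16 libraries 56.2, 58.5, 58.8, 47.3 and 54.6. In IF16 replicates 1 and 2 stood apart at 87.3 and 84.7 CPM, and in refed AL replicate 1 lay below the others. The Dbp interaction was 0.78 (95% interval 0.41 to 1.14, edgeR adjusted p = 0.137). Of the 20 fits with 1 library removed, 2 called Dbp. These were without AL replicate 4 (edgeR adjusted p = 0.0192) and without refed AL replicate 1 (0.0328), and the highest adjusted p was 0.289. Hlf, Rora, Rorb, Npas2 and Clock had interactions between -0.27 (Npas2) and 0.20 (Hlf), none past the test.

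**Figure D3:**
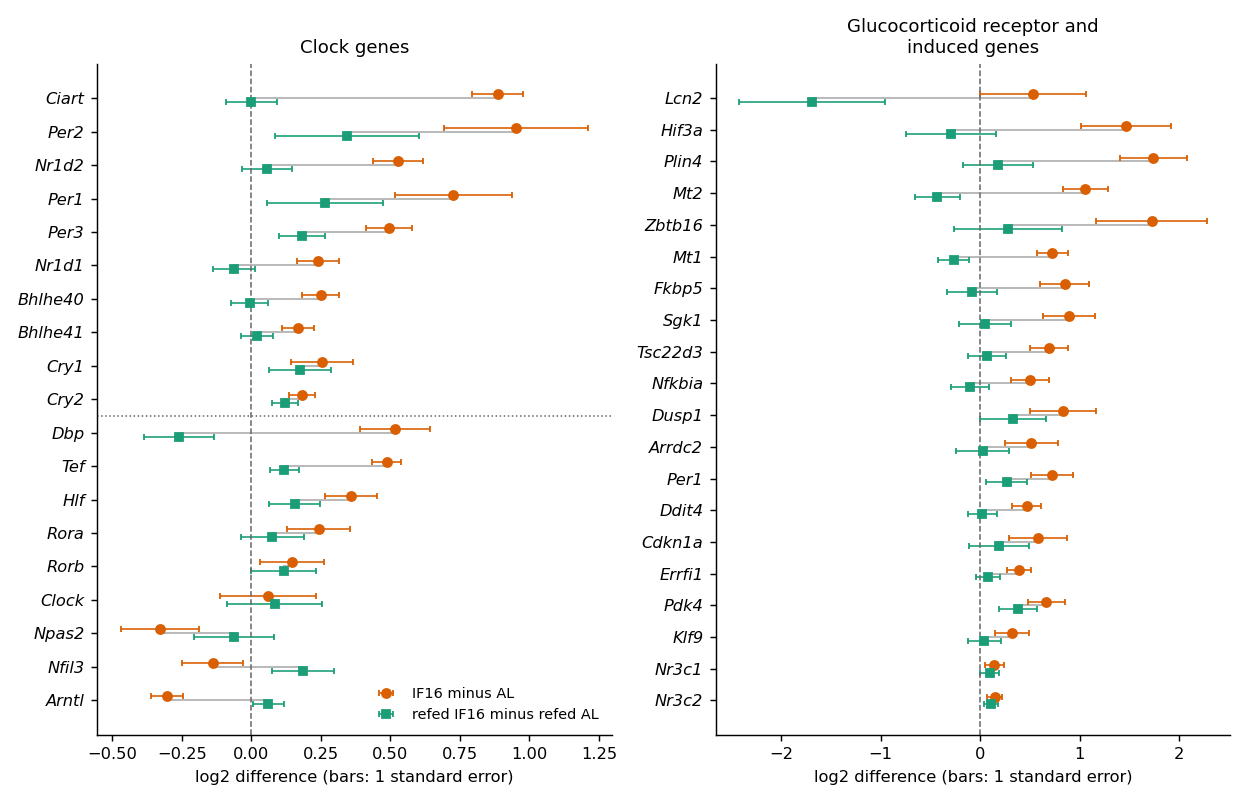
Regimen difference (circles) and refed difference (squares) in log2 units, with 1 standard error from the joint edgeR fit, for clock genes (left, repressors above the dotted line, activators and PAR bZIP factors below, 1 member not drawn) and for the glucocorticoid receptor with genes it induces (right). The circle lies to the right of the square in all 10 repressors and all 20 genes of the right panel, while Arntl has its circle at -0.30 and its square at 0.06.

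Among the called genes with a negative interaction, Col2a1 (ENSMUSG00000022483, chromosome 15, 97975602-98004695) encodes the chain of type II collagen, best known from cartilage. AL libraries held 7.55, 10.2, 8.39, 8.33 and 13.4 CPM of Col2a1, and IF16 libraries 5.95, 6.62, 4.79, 5.80 and 5.07. In the refed groups the values were 6.11, 7.09, 6.48, 8.23 and 6.64 CPM for AL and 9.999, 9.69, 9.93, 9.10 and 7.29 for IF16. All IF16 libraries were below all AL libraries, whereas in the refed groups 4 of 5 refed IF16 libraries were above every refed AL library. The means were 9.58 ± 2.36 CPM in AL, 5.64 ± 0.728 in IF16, 6.91 ± 0.817 in refed AL and 9.20 ± 1.13 in refed IF16. Col2a1 had a regimen difference of -0.76, a refed difference of 0.41 and an interaction of -1.17 (95% interval -1.55 to -0.80; edgeR adjusted p = 0.0034), and no single library decided this call.

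Mmp14 (ENSMUSG00000000957, chromosome 14, 54431604-54441258) encodes a membrane-anchored metalloproteinase that cleaves collagens and activates other metalloproteinases. The Mmp14 values were 39.3, 46.03, 41.2, 33.6 and 35.7 CPM in AL and 24.5, 29.5, 19.1, 25.7 and 25.8 in IF16. Refeeding gave 44.004, 43.8, 38.4, 33.2 and 34.9 CPM in refed AL and 43.2, 42.8, 46.2, 43.8 and 37.5 in refed IF16. IF16 lay wholly below AL, at means of 24.9 ± 3.75 and 39.2 ± 4.85 CPM, and the refed groups overlapped at 42.7 ± 3.18 and 38.9 ± 4.96. The regimen difference was -0.65, the refed difference 0.14 and the interaction -0.79 (95% interval -1.08 to -0.50; edgeR adjusted p = 0.0137).

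Vstm4 (ENSMUSG00000050666, chromosome 14, 32856756-32939487) was lower in IF16 and slightly higher in refed IF16 than in the matched controls. In AL, Vstm4 was measured at 13.9, 14.5, 16.6, 12.8 and 15.5 CPM, and in IF16 at 11.5, 11.2, 9.61, 10.9 and 8.93. Values after refeeding were 13.5, 11.9, 9.74, 9.68 and 9.75 CPM in refed AL and 13.4, 14.9, 12.5, 12.8 and 12.2 in refed IF16. The regimen groups did not overlap and the refed groups did, with refed AL replicate 1 among the refed IF16 values. Vstm4 had a regimen difference of -0.49, a refed difference of 0.27 and an interaction of -0.76 (95% interval -1.04 to -0.48; edgeR adjusted p = 0.0153). Without refed AL replicate 3, 4 or 5 or refed IF16 replicate 2 its adjusted p was 0.0545, 0.0514, 0.055 and 0.0575.

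0610040J01Rik (ENSMUSG00000060512, chromosome 5, 63812495-63899619), a protein-coding transcript known by its clone name, was lower in every IF16 than in every AL library. 0610040J01Rik was at 15.3, 20.1, 16.5, 17.5 and 18.4 CPM in the AL libraries and at 13.6, 14.3, 11.1, 10.6 and 11.9 in the IF16 libraries. Refed AL libraries held 13.8, 11.8, 10.8, 12.2 and 11.4 CPM and refed IF16 libraries 14.6, 15.1, 14.7, 14.6 and 13.4. In the refed groups 4 of 5 refed IF16 libraries were above every refed AL library. Its interaction was -0.78 (95% interval -1.03 to -0.54; edgeR adjusted p = 0.00301), from a regimen difference of -0.51 and a refed difference of 0.27. For Col2a1, Vstm4 and 0610040J01Rik the refed AL mean lay below the AL mean by 0.47, 0.42 and 0.55 on the log2 scale, and the refed IF16 means were below the AL means too. The shift of the controls cannot be told apart from age or table.

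Ctla2a (ENSMUSG00000044258, chromosome 13, 60934155-60936625), an inhibitor of cysteine proteases of the cathepsin family, had regimen and refed differences of nearly equal size and opposite sign. AL libraries held 3.89, 3.50, 3.58, 4.20 and 3.53 CPM of Ctla2a, and IF16 libraries 5.23, 4.39, 4.91, 5.27 and 6.06. In the refed groups the values were 3.70, 4.27, 4.14, 4.11 and 4.58 CPM for AL and 2.87, 2.69, 2.99, 3.84 and 3.01 for IF16. All IF16 libraries were above all AL libraries, and all refed IF16 libraries except replicate 4 were below all refed AL libraries. The regimen difference was 0.47, the refed difference -0.44 and the interaction 0.90 (95% interval 0.60 to 1.20; edgeR adjusted p = 0.00377). A near-identical neighbour, Ctla2b, can share its reads, so the level is uncertain.

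Fads2 (ENSMUSG00000024665, chromosome 19, 10064164-10101503), the desaturase that starts the synthesis of long polyunsaturated fatty acids, had a difference of larger size after refeeding than during the fast. The Fads2 values were 72.4, 76.6, 73.98, 75.2 and 69.8 CPM in AL and 61.9, 72.4, 57.7, 66.04 and 63.8 in IF16. Refeeding gave 67.01, 67.03, 62.7, 69.3 and 69.7 CPM in refed AL and 70.4, 79.8, 82.6, 85.1 and 86.8 in refed IF16. AL and IF16 overlapped through IF16 replicate 2, while every refed IF16 library was above every refed AL library. Fads2 had a regimen difference of -0.19 (edgeR adjusted p = 0.115) and a refed difference of 0.27, called in the fit of the refed table alone (adjusted p = 0.0312). The interaction was -0.46 (95% interval -0.63 to -0.29; edgeR adjusted p = 0.0137), and without refed AL replicate 3 its adjusted p was 0.0509. The length gradient separated the refed groups too. With the gradient as a covariate all 8 genes, Fads2 among them, remained called. In the refed libraries the gradient goes with the group, so this fit cannot separate its part in the refed difference, which was not tested.

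Of the 19 genes for fatty acid synthesis, desaturation and binding, Fads2 was called, 4 in all passed at an unadjusted p under 0.05 with a negative interaction (background 3.93%) and 1 with a positive one. The median was -0.04. Srebf1, the transcription factor that drives lipid synthesis genes when insulin is present, was at 73.3, 81.1, 79.6, 81.8 and 75.3 CPM in AL and at 64.3, 76.8, 45.8, 58.6 and 53.3 in IF16. In refed AL it was at 79.1, 77.5, 74.4, 75.3 and 76.4 and in refed IF16 at 87.6, 82.8, 80.97, 73.1 and 73.7. Only IF16 replicate 2 reached the AL range, and the interaction was -0.45 (SE 0.125, edgeR adjusted p = 0.345). Fabp7, the fatty acid binding protein of Bergmann glia and other astrocytes, had differences of the same sign in both comparisons. In AL, Fabp7 was measured at 41.9, 41.7, 48.2, 58.2 and 63.6 CPM, and in IF16 at 25.5, 23.3, 16.8, 23.4 and 17.8. Values after refeeding were 55.2, 47.4, 42.4, 52.3 and 45.5 CPM in refed AL and 32.1, 36.6, 40.3, 42.7 and 44.3 in refed IF16. All IF16 libraries were below all AL libraries, at a mean of 21.3 ± 3.83 against 50.7 ± 9.82 CPM, and the refed groups overlapped at 39.2 ± 4.93 and 48.5 ± 5.17. The interaction of Fabp7 was -0.94 (95% interval -1.40 to -0.48; edgeR adjusted p = 0.169). Acsbg1, an acyl-CoA synthetase of the brain, had -0.17 and Elovl2, an elongase, 0.24, neither called. Fatty acid oxidation had no gene past an unadjusted p under 0.05 among 19 (median -0.03), and cholesterol synthesis had 1 positive and 2 negative among 24 (median -0.03).

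The metallothioneins Mt1 and Mt2, small zinc-binding proteins induced by metals and glucocorticoids, had some of the largest interactions among the abundant genes but were not called. Mt2 was at 115, 73.6, 112, 191 and 161 CPM in the AL libraries and at 237, 171, 288, 303 and 360.5 in the IF16 libraries. Refed AL libraries held 92.7, 94.9, 120.1, 128 and 146 CPM and refed IF16 libraries 60.98, 73.99, 68.8, 108 and 120.1. IF16 replicate 2 lay within the AL range and the other 4 IF16 libraries above it, and in the refed groups the ranges overlapped with the refed IF16 mean the lower. The Mt2 regimen difference was 1.06, the refed difference -0.43 and the interaction 1.49 (95% interval 0.84 to 2.14; edgeR adjusted p = 0.082). AL libraries held 272, 181, 248, 393 and 309 CPM of Mt1, and IF16 libraries 470.3, 324, 503, 499.9 and 524. In the refed groups the values were 205, 198, 248, 273 and 271 CPM for AL and 178, 190.1, 181, 213 and 232 for IF16. Mt1 thus had the same order of groups, with an interaction of 0.99 (95% interval 0.54 to 1.44; edgeR adjusted p = 0.106). Both were called without AL replicate 4, the AL library with the highest levels (edgeR adjusted p = 0.0192 for Mt2 and 0.0119 for Mt1). They were also called without IF16 replicate 2 (0.0234 for each). Of 20 fits with 1 library removed, 3 called Mt2 and 2 called Mt1, and the edgeR adjusted p reached 0.214 and 0.232. The 2 genes are close paralogs and reads may be exchanged between them.

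Mt2 and Mt1 are neighbours on the plus strand, and their RefSeq windows end at the deposited gene starts. They are shown because the levels of the pair had the same order of groups, with the metal response core (TGCNCNC, either strand) and the glucocorticoid response element (GNACA, then any 3 bases, then TGTNC, either strand) in capitals. Mt2 is at chr8:94172368-94172617 and Mt1 at chr8:94178839-94179088.
Mt2: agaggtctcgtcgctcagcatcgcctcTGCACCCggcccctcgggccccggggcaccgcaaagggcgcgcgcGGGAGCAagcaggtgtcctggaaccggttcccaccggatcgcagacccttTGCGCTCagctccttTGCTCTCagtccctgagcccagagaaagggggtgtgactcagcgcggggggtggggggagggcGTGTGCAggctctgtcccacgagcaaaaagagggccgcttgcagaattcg
Mt1: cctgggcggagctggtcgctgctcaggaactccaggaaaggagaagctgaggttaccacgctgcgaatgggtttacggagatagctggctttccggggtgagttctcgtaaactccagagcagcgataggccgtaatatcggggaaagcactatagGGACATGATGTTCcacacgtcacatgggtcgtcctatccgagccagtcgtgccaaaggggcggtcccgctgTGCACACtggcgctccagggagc
The Mt2 window holds 5 metal response cores, of which the first begins at -223, and the Mt1 window holds 1, at -23. Bases past the deposited starts were not searched, so these counts are of the windows and not of whole promoters. This core is short and stands in 44.4% of all windows. The Mt1 window also holds 1 glucocorticoid response element, at -94, a motif found in 0.387% of all windows, and it was the only one among 18 windows of the glucocorticoid list.

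**Figure D4:**
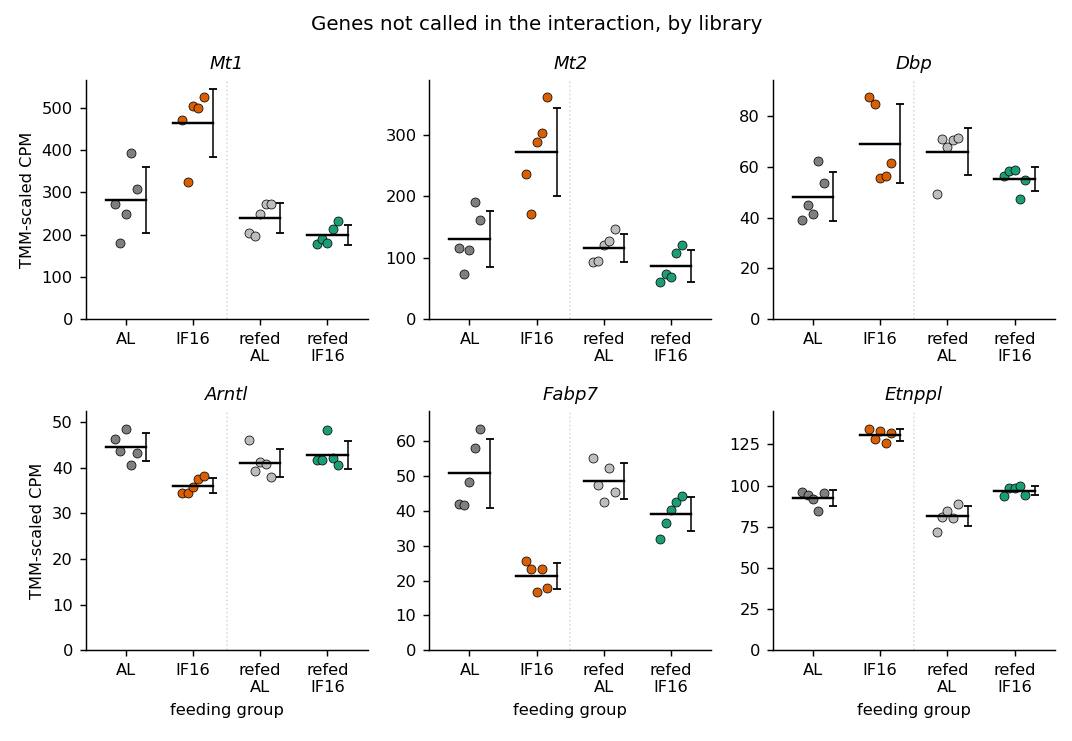
TMM-scaled CPM (vertical, from 0) of 6 genes described in the text that were not called in the interaction, in the 5 libraries of each group (points), with mean (line) and SD (bar). Mt2 stood at 171 to 360 CPM in IF16 and at 146 CPM or less in all 10 refed libraries, while Etnppl kept its groups apart both on the regimen and after refeeding.

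All 20 genes of the list of glucocorticoid receptor and induced genes had a positive interaction, and none was called. At an unadjusted p under 0.05, 10 of 20 passed (background 3.28% in that direction). The list was chosen with earlier results of these data known, and its members were measured in the same libraries. These counts are therefore a description and not separate support. Per1 is also a member of the clock repressor list. The median interaction was 0.55, and it ran from 0.45 to 0.70 as single libraries were left out. The median regimen difference was 0.68 and the median refed difference 0.06. Spread within groups was wide. Fkbp5, a co-chaperone that dampens the receptor, was at 9.50, 6.78, 7.87, 9.87 and 8.15 CPM in AL and at 10.01, 10.1, 10.5, 17.8 and 27.6 in IF16. In refed AL it was at 6.81, 7.76, 10.3, 10.8 and 13.3 and in refed IF16 at 6.68, 7.29, 8.75, 10.99 and 12.7. Every IF16 library was thus above every AL library, 3 of them by a small margin, and the refed groups overlapped (interaction 0.93, SE 0.354). Sgk1, a kinase that regulates ion channels, was at 53.8, 71.6, 126, 168 and 175 CPM in IF16 against 62.1, 61.7, 67.2, 74.4 and 54.6 in AL. It was at 56.5, 59.8, 108, 75.8 and 86.7 in refed AL and 54.7, 54.7, 81.99, 105 and 104 in refed IF16 (interaction 0.84, SE 0.365). In Sgk1, IF16 replicates 3, 4 and 5 were above all AL libraries and replicates 1 and 2 were within or below their range. Tsc22d3, an anti-inflammatory factor, had an interaction of 0.63, Plin4, a lipid droplet protein, 1.56, Hif3a, a hypoxia-related factor, 1.76, and Zbtb16, a zinc finger factor, 1.45. The SEs of these 4 were 0.272, 0.486, 0.638 and 0.774. The receptors Nr3c1 and Nr3c2 themselves had interactions of 0.05 and 0.03. Lcn2 had the highest value, 2.22, at group means of only 0.750 CPM in AL, 1.09 in IF16, 0.532 in refed AL and 0.166 in refed IF16. Its IF16 mean rests on replicate 5 at 3.56 CPM, while the other 4 IF16 libraries, at 0.239 to 0.701, lay below the AL mean.

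In the other pathway lists few members passed an unadjusted p under 0.05 (background 3.28% with a positive and 3.93% with a negative interaction). Of the 16 PPAR-type fasting lipid genes tested, 2 passed unadjusted with a positive interaction, Plin4 and Angptl4, an inhibitor of lipoprotein lipase (0.78, SE 0.301), and 3 with a negative one, Plin2 (-0.36), Acot1 (-0.29) and Ppard (-0.21). The median was 0.01. Pdk4, which turns off pyruvate entry in fasting, had a regimen difference of 0.67 and a refed difference of 0.38. Of 20 insulin and FOXO signalling genes, 1 passed in each direction, and the median was -0.08. Txnip, a brake on glucose uptake, was at 15.98, 14.2, 15.7, 14.6 and 13.9 CPM in AL and at 17.5, 21.03, 30.5, 41.8 and 42.4 in IF16, all above AL. After refeeding it was at 13.4, 13.3, 19.1, 18.3 and 16.5 in refed AL and 11.8, 12.1, 16.6, 22.1 and 20.004 in refed IF16, where the groups overlapped (interaction 1.01, SE 0.303, edgeR adjusted p = 0.418). Akt2, a kinase of insulin signalling, had an interaction of -0.35 (SE 0.108).

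Immediate early genes had a median interaction of 0.21, with medians of 0.48 for the regimen and 0.33 for the refed difference. The median interaction was 0.02 without refed AL replicate 2, 0.06 without refed AL replicate 3 and 0.35 without refed IF16 replicate 3. None of 17 passed with a positive interaction and 2 did with a negative one, Arc (-0.38) and the scarce Egr3 (-1.81). Fos, the best known of them, had 1.09 on the regimen and 0.43 after refeeding, with an SE of 0.766 on the interaction. Heat shock and cold-inducible genes had the lowest median, -0.17, with 1 of 20 past an unadjusted p, Hspb1 (-0.78, SE 0.339). None of 12 ketone body and monocarboxylate transport genes, 24 glycolysis genes or 16 amino acid response genes passed at an unadjusted p, and their medians were 0.01, -0.07 and -0.01. Of 20 genes for H3K9 methylation and demethylation, 1 passed, the demethylase Kdm3a (0.26), and of 21 autophagy genes 1, the lysosomal regulator Tfeb (-0.41), with list medians of 0.04 and -0.01. Of 12 ethanolamine phospholipid genes, 1 passed, Etnppl, and the median was 0.05.

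**Figure D5:**
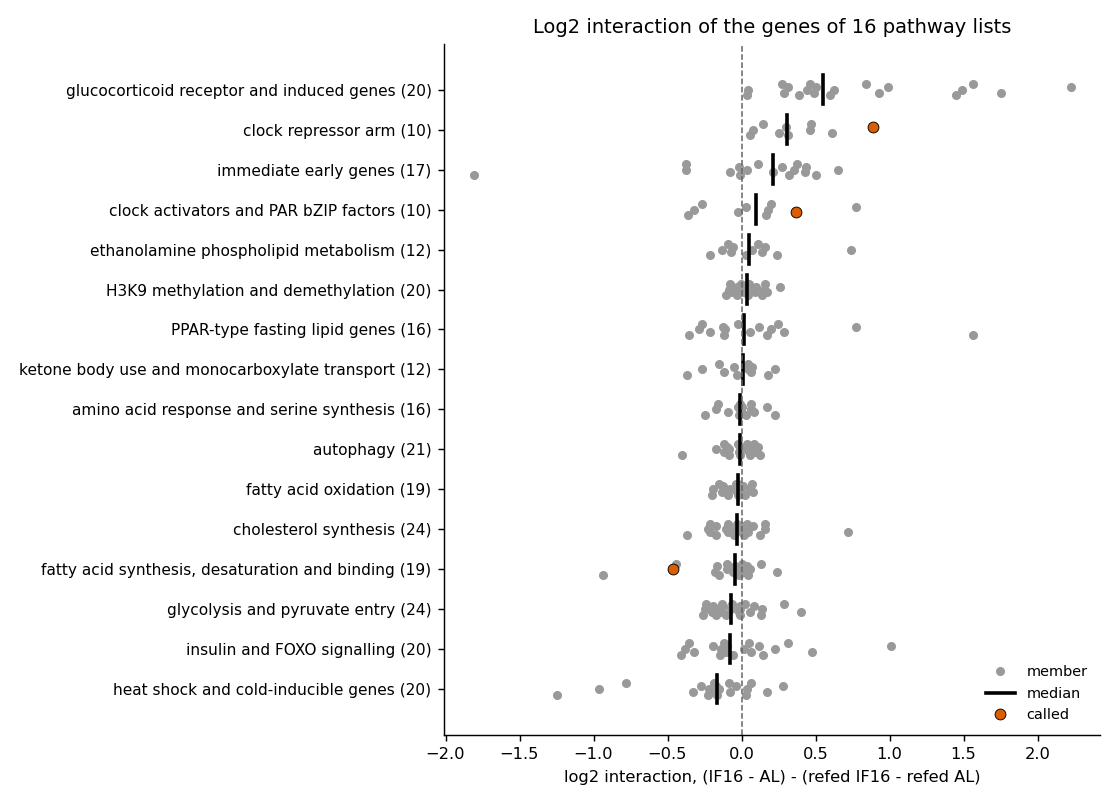
Log2 interaction (horizontal) of each tested member (grey points) of 16 pathway lists, with the list median (black bar) and called genes in orange. Numbers in brackets are genes tested, and points are spread vertically only for legibility. Medians ran from -0.17 in the heat shock list to 0.55 in the glucocorticoid list, and only Ciart, Tef and Fads2 are called.

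Further genes with small unadjusted p were named by rule and none was called by edgeR. Sox3, a factor of neural progenitors, had the next smallest p. The Sox3 values were 3.40, 2.54, 2.39, 4.02 and 2.99 CPM in AL and 1.31, 1.83, 0.526, 1.30 and 1.15 in IF16. Refeeding gave 2.31, 1.70, 1.47, 1.63 and 1.55 CPM in refed AL and 1.71, 1.92, 2.04, 1.45 and 2.38 in refed IF16. All IF16 libraries were below all AL libraries, and the refed groups overlapped at about the same low level (interaction -1.46, 95% interval -2.06 to -0.85, edgeR adjusted p = 0.0553). Sox3 was called in 6 of 20 fits with 1 library removed. Nptx2, a neuronal pentraxin that gathers glutamate receptors at synapses, had an interaction of -1.14 (edgeR adjusted p = 0.0811), with AL replicate 1 at 5.40 CPM above the 2.45 to 3.26 of the other AL libraries. Panx1, a channel that releases ATP, had -0.96, and its AL values reached 6.01 CPM in replicate 4 and 5.35 in replicate 1, the libraries high in Nrgn. Without those 2 libraries the interactions were -0.84 for Nptx2 and -0.64 for Panx1. With all libraries, Sox3 changed by -0.82, Nptx2 by -1.01 and Panx1 by -0.66 from AL to refed AL. From IF16 to refed IF16 the same genes changed by 0.63, 0.13 and 0.29.

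Hfm1, a helicase of meiosis, was the gene of this set whose refed groups also did not overlap: every refed IF16 library was below every refed AL library, as in 1.03% of all genes tested. Loxhd1, known from hair cells of the ear, had 1.71 at means of 0.567 CPM in AL, 1.55 in IF16, 0.980 in refed AL and 0.814 in refed IF16, and Hfm1 1.23 at means of 0.640 CPM in AL, 1.04 in IF16, 1.19 in refed AL and 0.812 in refed IF16. The transporters Slc38a5, for glutamine, and Slc7a6, for cationic amino acids, went in opposite directions, with -0.89 and 0.40. The Wnt receptor Fzd8 had -0.58, the leak potassium channel Kcnk13 -0.53, the calcineurin-regulated factor Nfatc2 -0.38 and the kinesin Kif1c -0.30. Adjusted p of these 8 genes by edgeR ran from 0.0715 to 0.196. DESeq2 called 29 genes on the same data. Among them were the 8 genes called by edgeR and all 16 uncalled genes that the naming rule took by smallest p.

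The question of how many regimen differences were left after refeeding depends on which fit makes the calls. In the joint fit of 30 libraries, 135 genes were called between IF16 and AL (0.800%; 45 higher and 90 lower) and none between refed IF16 and refed AL (0%, with 654 genes or 3.88% at an unadjusted p under 0.05; DESeq2 called 12). Fitted in their own tables, the comparisons gave 8 (0.0483%) and 28 genes (0.170%). The spread between libraries was wider on the regimen than after refeeding, with a common biological coefficient of variation of 14.3% against 8.05%. In the joint fit, where the spread of each gene was estimated over all 30 libraries, the common value was 11.7%. Without AL replicate 1 the joint regimen count was 616, and without IF16 replicate 3 it was 21.

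For the 135 genes called on the regimen, the median difference in the direction of the call was 0.45, and in the refed table it was 0.03. After refeeding 77 had the same and 55 the opposite sign, the rest not being tested in the refed table. Over all genes tested the counts were 9647 and 6797, much the same share. A total of 32 of the 135 (24 with the same and 8 with the opposite sign) passed an unadjusted p under 0.05 in the refed table, 23.7% against 9.34% of all genes of the joint fit. Such genes were chosen for a large regimen difference, so a smaller refed value is partly built in, and their interactions carry no support. The 135 include the forebrain-rich Nrgn (regimen difference -2.66), which was high only in AL replicates 1 and 4. Without those 2 libraries 80 genes were called, of which 60 were among the 135. The part of forebrain RNA in the other calls was not tested. Of the 135, 6 kept the greater part of the difference, against 5454 of all 16877 genes, whose median regimen difference was only 0.11 in size: Etnppl, Il17d, Pou3f1, Pik3ip1, Rfx2 and 1110007C09Rik, named here after their values were seen.

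Etnppl, an enzyme of astrocytes that breaks down phosphoethanolamine, had the smallest refed p among these. In AL, Etnppl was measured at 96.2, 94.3, 92.03, 84.5 and 95.5 CPM, and in IF16 at 135, 128, 133, 126 and 132. Values after refeeding were 71.9, 80.9, 84.4, 80.5 and 88.6 CPM in refed AL and 93.5, 98.7, 98.7, 99.5 and 94.4 in refed IF16. The IF16 libraries were all above AL and the refed IF16 libraries all above refed AL. The regimen difference was 0.50 and the refed difference 0.25, the latter called in the refed table alone (adjusted p = 0.0378). Its interaction was 0.24 (95% interval 0.10 to 0.38; edgeR adjusted p = 0.375). Il17d, a cytokine, had regimen and refed differences of -0.53 and -0.36, and Pou3f1, a transcription factor of glia and neurons, -0.82 and -0.51.

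The alternate-day regimen (EOD, 24 h without food on alternate days, then the same refeeding) was set beside the daily fast. No gene was called for a difference between the IF16 and EOD interactions (0%; 1414 genes or 8.38% at an unadjusted p under 0.05; DESeq2 also called none). The 8 genes had EOD interactions of the same sign as the IF16 ones, but both rest on the same AL and refed AL libraries. In the difference itself the controls cancel. It was 0.40 for Ciart (95% interval 0.13 to 0.66), -0.44 for Mmp14 (-0.72 to -0.15), -0.38 for Vstm4 (-0.66 to -0.10) and -0.28 for 0610040J01Rik (-0.53 to -0.04), intervals that exclude 0 before adjustment. It was 0.29 for Ctla2a (-0.01 to 0.59), -0.25 for Col2a1 (-0.63 to 0.13), -0.15 for Fads2 (-0.32 to 0.02) and 0.10 for Tef (-0.05 to 0.25). These intervals include 0 and also differences of a fair share of the interaction, so the regimens are not shown to act alike.

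Marker genes of other cell types were read the same way, and none was called. All 8 microglia markers had a negative interaction (median -0.21), and 3 passed at an unadjusted p under 0.05 (background 3.93% in that direction): Cx3cr1 (-0.29), Csf1r (-0.20) and Fcrls (-0.63). The fractalkine receptor Cx3cr1 was at 16.1, 15.9, 14.8, 14.7 and 14.3 CPM in AL and 14.1, 11.9, 12.2, 11.8 and 12.7 in IF16, and at 14.4 to 16.6 CPM in all refed libraries. Every IF16 library was below every AL library, as in 0.711% of all genes tested. In whole tissue, fewer cells of a type and less RNA per cell cannot be told apart. All 6 red blood cell markers had a positive interaction (median 0.84), with median regimen and refed differences of -0.05 and -0.86. Their sum ran from 10.9 to 115 CPM in refed AL and from 15.2 to 57.4 in refed IF16, and 1 of the 6 passed at an unadjusted p under 0.05 (background 3.28% in that direction). Choroid plexus markers had a median of 0.29 with 7 above and 4 below 0, and with their mean as a covariate 10 genes were called, the 8 among them. Meningeal and fibroblast markers, which express many collagens and matrix proteases, had a median of -0.15 with 5 of 6 below 0. Their sum lay between 223 and 364 CPM in AL and between 211 and 325 in IF16. It lay between 188 and 299 in refed AL and between 177 and 274 in refed IF16, and their part in the Col2a1 and Mmp14 results was not tested. Of the remaining marker lists, Purkinje cells (9 genes), granule cells (9) and brainstem (3 tested) each had 1 gene past an unadjusted p with a positive interaction, and oligodendrocytes (8) and ependyma (5) 1 with a negative one. Astrocytes and Bergmann glia had 2 of 11 and forebrain 2 of 5 with a negative interaction, endothelium had 1 of 7 in each direction, and the few liver and pituitary genes tested had none. Over all genes tested, 3.28% passed with a positive and 3.93% with a negative interaction. In the refed table alone, 3 of the 11 astrocyte markers were called, against 0.170% of all genes tested there. These were the gap junction gene Gja1 (refed difference 0.32), the endothelin receptor Ednrb (0.27) and the water channel Aqp4 (0.23). Each was higher in every refed IF16 library than in every refed AL library, as in 1.13% of all genes of the joint fit. The summed list lay between 5049 and 5671 CPM in refed AL and between 5417 and 5821 in refed IF16. The part of astrocyte RNA in the refed differences of Fads2 and Etnppl was not tested.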

How the data were processed

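RNA-seq was made from total RNA of frozen cerebellum, and the deposited tables hold raw read counts per gene, 1 table for the regimen groups and 1 for the refed groups, 35275 genes each. Per the submitters' processing notes the tools were STAR 2.5, HTSeq 0.6.1 and DESeq2 2 with build mm10. The annotation release and the handling of strand are not given in the sources used here, so overlapping and antisense genes cannot be told apart. The tables were joined on gene ID. All 30 RNA libraries (6 groups of 5) were fitted together in edgeR 4.0.16 (R 4.3.3) with TMM factors, filterByExpr and the quasi-likelihood test, and p-values were adjusted by Benjamini-Hochberg over 16877 genes, with calls at 0.05. Levels are TMM-scaled CPM. The scripts were tested on simulated data.

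Genes and lists (16 pathway, 14 marker) were chosen with earlier results of these data known. The rule named every called gene, further genes with a usable symbol and a mean of at least 1 CPM by smallest interaction p up to 24, the 8 with smallest p in each called comparison, the top gene of each pathway list and all clock genes. List members beyond these were picked after their values were seen. Alternatives were DESeq2 1.42.0, RLE factors, other filters, 20 libraries only, separate tables, limma 3.58.1 voom weights, covariates for length gradient and choroid plexus, a replicate block and each library left out. Leaving out AL 4, AL 5 and IF16 1, or AL 1 and AL 4, was chosen after seeing the data. Promoter sequences came from RefSeq (GRCm38.p6), where 39 of 45 genes looked for matched. The 12 ChIP and input samples were not analysed here. A single member of the clock activator list enters the counts but is not reported here by name.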

Additional observations from a re-analysis of the deposited data

Results flagged for a closer look

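The response to the fast differed between regimen and refeeding in 8 genes by the interaction test in edgeR. The log2 interactions were 0.89 for Ciart, 0.90 for Ctla2a and 0.37 for Tef. They were -1.17 for Col2a1, -0.79 for Mmp14, -0.78 for 0610040J01Rik, -0.76 for Vstm4 and -0.46 for Fads2.

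Of 108 gene-by-group sets of 5 libraries tested with Dixon's criterion (27 genes in 4 groups), 7 held a library far from the other 4, where chance gives about 1 in 20. refed AL replicate 1 was such a library in 3 genes: Tef stood at 302 CPM against 346 to 358, Dbp at 49.3 against 67.8 to 71.3 and Sox3 at 2.31 against 1.47 to 1.70. Mt1 was at 324 CPM in IF16 replicate 2 against 470 to 524 in the others. Nptx2 was at 5.40 CPM in AL replicate 1 against 2.45 to 3.26. Arntl was at 48.3 CPM in refed IF16 replicate 3 against 40.5 to 42.2, and Ctla2a at 3.84 in refed IF16 replicate 4 against 2.69 to 3.01.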

How the results depend on the processing

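The interaction count of 8 was 29 with DESeq2, 36 with the length gradient as a covariate, 4 in 20 libraries, and 5 to 16 as each library was left out. All 8 genes were among the calls with DESeq2 and with the gradient. The IF16 against AL count of 135 was 340 with DESeq2, 31 in 20 libraries, 8 with separate tables, 8 with voom weights, 310 with the gradient, 42 without AL 4, AL 5 and IF16 1, 80 without AL 1 and AL 4, and 21 to 616 as each library was left out. The refed IF16 against refed AL count of 0 was 12 with DESeq2, 28 with separate tables, 31 with voom weights, 6 with the gradient, 4 without AL 4, AL 5 and IF16 1, and 0 to 9 as each library was left out. The difference from the alternate-day regimen had 0 calls in every alternative run. The cause of these shifts was not tested. Separate tables cannot give the interaction, nor 20 libraries the difference from the alternate-day regimen.

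List medians moved as follows. The clock activators' median was 0.039 to 0.16 as libraries were left out and 0.17 without AL 1 and AL 4. Immediate early genes gave 0.023 to 0.35, insulin and FOXO signalling gave -0.12 to 0.054 and ethanolamine metabolism -0.043 to 0.088. Without AL 4, AL 5 and IF16 1, the amino acid list gave 0.073 and autophagy 0.030. The sign of Clock (-0.02) reversed with voom weights (0.0072), the gradient (0.0053) and without AL 1 and AL 4 (0.00041), and its range was -0.17 to 0.14 as libraries were left out. That of Rorb was -0.060 to 0.11.

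Same-number correlations ran from -0.51 to 0.16 between AL and IF16, where no library correlated best with its own number. Between refed AL and refed IF16 all were positive, from 0.071 to 0.41, and 3 libraries correlated best with their own number. Of all 10 correlations, 3 were over 0.1. Replicate numbers thus did not pair the regimen libraries, and whether they pair the refed ones cannot be told from the labels. With the replicate block the interaction gave 11 calls, with Tef lost and Mt2, Mt1, Loxhd1 and Hfm1 gained, IF16 against AL gave 225, and Clock was at 0.00083. In that fit the edgeR adjusted p was 0.00039 for Mt2 and 0.0092 for Mt1.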
